A study of Homo sapiens with 13 samples.

Results

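Small nuclear RNA (snRNA) genes were examined as binding regions of PTBP1 and RUNX1 in MOLM-13 cells, an established human acute myeloid leukemia line. The genes were the snRNA-type genes of GENCODE version 44 on the autosomes whose symbols name the U1, U2, U4, U5, U6, U7, U11, U12, U4atac or U6atac RNA, without the pseudogenes ending in P. This gave 48 of 59578 autosomal genes, and a peak was assigned to a gene when it lay within 1000 bases of it. PTBP1 regulates splicing through pyrimidine tracts in RNA, while RUNX1 is a DNA-binding transcription factor of blood cells. No treatment is named for any library. The series held 13 libraries of MOLM-13 cells, with 2 PTBP1, 2 RUNX1 and 1 IgG library by CUT&Tag, in which a tethered transposase marks the bound DNA, and 2 each of PTBP1, RUNX1, H3K27me3 and IgG by CUT&RUN, where an antibody-bound nuclease releases it. All values below come from the single deposited PTBP1 list of 9370 peaks and the single RUNX1 list of 7688 peaks on hg38. No spread between replicates can therefore be given, intervals cover counting error only, and library depths were not used here. These libraries came from 1 cell line, and IgG peaks were not analysed.

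snRNAs are short, highly transcribed RNAs that work inside protein complexes. U1, U2, U4, U5 and U6 form the major spliceosome, U11, U12, U4atac and U6atac replace their counterparts in the minor spliceosome, and U7 directs 3′ end processing of histone mRNAs. Most are made by RNA polymerase II from a promoter with a distal octamer and a proximal sequence element (PSE), and their 3′ ends are formed by the Integrator complex. U6 and U6atac are made by RNA polymerase III from a promoter with the same elements and a TATA box.

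The promoters of 3 genes with peaks are shown because they cover both promoter classes. Each runs from 250 bases before the annotated start into the first 50 bases of the gene, 5′ to 3′ on the gene's strand of hg38. Capitals mark exact matches to the octamer ATGCAAAT, the PSE pattern ACCNNNNNTNNAANG, TATA, the GC box GGGCGG or the RUNX motif (TGTGGT or TGCGGT). The PSE and TATA were sought on the gene's strand only, and TATA only where it lay wholly 36 to 20 bases before the start, so other TATA letters stay in lower case. The remaining motifs were sought on either strand. RNVU1-27 (chr1:148522351-148522650, plus strand) and RNU4-2 (chr12:120291854-120292153, minus) are polymerase II genes, and RNU6ATAC (chr9:134164515-134164814, minus) is a polymerase III gene.
RNVU1-27: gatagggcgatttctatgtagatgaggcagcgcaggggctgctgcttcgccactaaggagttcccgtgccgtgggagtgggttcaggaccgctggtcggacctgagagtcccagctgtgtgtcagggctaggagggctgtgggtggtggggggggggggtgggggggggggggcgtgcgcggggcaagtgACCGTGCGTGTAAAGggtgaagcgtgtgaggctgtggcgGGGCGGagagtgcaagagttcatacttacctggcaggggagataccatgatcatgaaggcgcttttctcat
RNU4-2: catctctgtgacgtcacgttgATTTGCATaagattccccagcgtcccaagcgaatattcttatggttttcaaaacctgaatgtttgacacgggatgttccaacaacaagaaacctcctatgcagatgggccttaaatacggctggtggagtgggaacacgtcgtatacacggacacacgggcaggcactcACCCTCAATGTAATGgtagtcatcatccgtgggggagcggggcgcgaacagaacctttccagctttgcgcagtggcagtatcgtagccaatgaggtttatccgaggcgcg
RNU6ATAC: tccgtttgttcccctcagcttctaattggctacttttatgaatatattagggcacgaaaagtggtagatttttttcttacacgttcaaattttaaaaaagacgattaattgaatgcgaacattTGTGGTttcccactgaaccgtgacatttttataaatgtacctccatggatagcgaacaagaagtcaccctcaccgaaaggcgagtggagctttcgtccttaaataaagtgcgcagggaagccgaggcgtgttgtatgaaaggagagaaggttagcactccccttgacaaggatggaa

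Of the 48 snRNA genes, 17 had a PTBP1 peak within 1 kb, a share of 35.4% (95% Wilson interval 23.4 to 49.6). Among all 59578 autosomal genes the share was 15.7%. Long genes offer more room for a peak, and among the 6956 autosomal genes no longer than the longest snRNA gene (191 bases) the share was 4.51%. A RUNX1 peak was present at 11 snRNA genes, or 22.9% (13.3 to 36.5), against 14.1% of all genes and 2.67% of the short genes. Peaks of both lists were present at 9 genes, or 18.8% (10.2 to 31.9), against 10.7% and 2.03%. In total 19 genes had a peak of either list, or 39.6% (27.02 to 53.7), against 19.1% of all genes and 5.16% of the short genes, and 29 had none.

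The snRNA genes were well above the other genes annotated as snRNA, which are mostly pseudogene copies. This set holds every snRNA-type gene outside the symbols used here, so it was not limited to pseudogenes. Of its 1752 genes, 15 had a PTBP1 peak (0.856%, 0.520 to 1.41) and 8 a RUNX1 peak (0.457%, 0.232 to 0.898). Start sites of protein-coding genes gave shares that lay within the intervals of the snRNA genes: 27.2% with a PTBP1 peak, 22.0% with a RUNX1 peak and 17.9% with both, over 19111 sites. A coding start site lay within 1 kb of 6 snRNA genes. Of these, 4 had a PTBP1 peak (66.7%, 30.0 to 90.3) and 3 a RUNX1 peak (50%, 18.8 to 81.2). The 254 other short genes with a coding start that close had shares of 39.8% and 32.3%, within these intervals. Among the 42 snRNA genes with no coding start that close, 13 had a PTBP1 peak (31.0%, 19.1 to 46.0) and 8 a RUNX1 peak (19.0%, 9.98 to 33.3). The other short genes with no coding start within 1 kb had shares of 2.95% and 1.40% over 6654 genes.

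**Figure D1:**
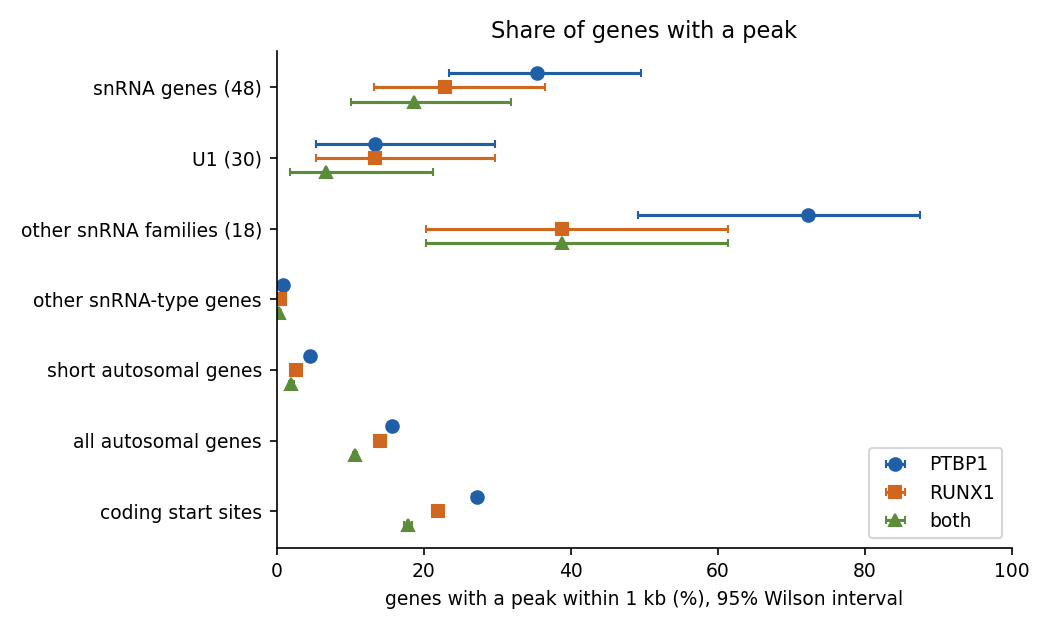
Percentage of genes with a PTBP1 peak (circles), a RUNX1 peak (squares) or both (triangles) within 1 kb, with 95% Wilson intervals, for the snRNA genes, the U1 family, the other snRNA families and 4 comparison sets (coding genes at their start sites). PTBP1 was at 13 of 18 genes outside the U1 family and at 4 of 30 U1 genes.

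The families differed. Outside U1, 13 of 18 genes had a PTBP1 peak (72.2%, 49.1 to 87.5) and 7 had a RUNX1 peak (38.9%, 20.3 to 61.4). In the U1 family 4 of 30 had a PTBP1 peak and 4 of 30 a RUNX1 peak, each 13.3% (5.31 to 29.7). The PTBP1 intervals of the 2 groups do not overlap, and the RUNX1 intervals do. These intervals count each gene as separate, although RNU4-1 and RNU4-2 share the same PTBP1 peak. The groups also differ in surroundings: of the 6 snRNA genes with a coding start within 1 kb, only RNU1-4 is a U1 gene. The difference between the groups was not tested. For PTBP1 and RUNX1, the shares were 15.7% and 14.1% of all autosomal genes, and 4.51% and 2.67% of the short genes. The U1 intervals include the shares of all autosomal genes. All 7 genes outside U1 with a RUNX1 peak also had a PTBP1 peak, whereas in U1 the lists met at 2 genes. PTBP1 peaks lay at 15 of 42 polymerase II genes (35.7%, 22.99 to 50.8) and 2 of 6 polymerase III genes (33.3%, 9.68 to 70.0), and these intervals overlap widely. Over all snRNA genes, the 9 with both peaks were 52.9% of those with a PTBP1 peak and 81.8% of those with a RUNX1 peak. Among all autosomal genes, 6379 had both, beside 9336 with a PTBP1 peak and 8420 with a RUNX1 peak. Most autosomal genes with a PTBP1 peak thus also had a RUNX1 peak, and most with a RUNX1 peak also had a PTBP1 peak. Against these counts, the snRNA share with both was lower among PTBP1 genes and higher among RUNX1 genes, which was not tested.

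In the values that follow, fold enrichment is the authors' ratio of summit fragments to background after adding 1 to each, and the number of fragments is the whole count that this ratio and its p-value imply. At every snRNA peak the background took its usual value, 0.720 fragments for PTBP1 and 0.330 for RUNX1, and 0 peaks had a raised one. Fold enrichments can therefore be ordered within a list but not between the lists. The lowest peak of the PTBP1 list had 11 fragments and of the RUNX1 list 8. Summit positions are given from the annotated snRNA start, with positive values in the direction of transcription.

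U1 snRNA recognises the 5′ splice site, and its genes cluster on chromosome 1. RNVU1-27 (chr1:148522601-148522765) had the highest PTBP1 fold enrichment of the U1 genes, 33.7 from 57 fragments (95% exact Poisson interval 43.2 to 73.9), ranking 781 in its list. Its summit lay 318 bases after the start, and a RUNX1 peak of fold enrichment 12.03 from 15 fragments had its summit at 235. RNVU1-14 (chr1:145281116-145281279) had a PTBP1 peak of 23.3 from 39 fragments (27.7 to 53.3), also 318 bases after the start, and a RUNX1 peak of 11.3 from 14 fragments at 168. The PTBP1 counting intervals of these 2 genes overlap.

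RNU1-2 (chr1:16895980-16896143), within the annotated span of CROCC, had a PTBP1 peak of 12.2 from 20 fragments at 240 and no RUNX1 peak. RNVU1-3 (chr1:148402715-148402875) had a PTBP1 peak of 8.72 from 14 fragments, 79 bases before the start and 9 bases short of the gene. It was the only U1 gene whose PTBP1 summit lay upstream. RUNX1 alone was present at RNVU1-19 (chr1:120850819-120850985), with 14.3 from 18 fragments at 88, and at RNVU1-21 (chr1:148334612-148334767), with 6.77 from 8 fragments at 246. The peak at RNVU1-21 thus held the smallest number of fragments found in the RUNX1 list. No peak was assigned to RNU1-1, RNU1-3, RNU1-4 or the other 21 U1 variant genes.

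The first 30 bases of the 6 U1 genes with peaks are shown because the U1 5′ end pairs with the 5′ splice site. The first 11 bases are in capitals.
RNU1-2: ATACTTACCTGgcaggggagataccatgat
RNVU1-14: ATACTTACCTGgaaggggagataccatgat
RNVU1-19: ATACTTACCTGgcaggggagatactattat
RNVU1-27: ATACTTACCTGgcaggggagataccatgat
RNVU1-3: ATATTTATCTGgcagaagaaatgttatgat
RNVU1-21: CTAATTACCTGgcatcggagaggacgttat

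These 11 bases were the same as in RNU1-1 at 4 of the 6 genes with a peak and at 11 of the 24 without. Over the whole gene, the edit distance (substituted, added or lost bases) to RNU1-1 had a median of 14.5 in both groups, with a range of 0 to 41 among genes with a peak and 0 to 65 among those without. Of 6 U1 genes identical to RNU1-1, itself included, RNU1-2 had a peak. RNVU1-3 and RNVU1-21 differed from RNU1-1 by 26 and 41 edits.

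The regions downstream of RNVU1-14 and RNVU1-27 are near copies of each other. The 101 bases around their PTBP1 summits, chr1:145281384-145281484 and chr1:148522869-148522969, both plus strand, are shown because they carry summits at the same distance from the start and differ by 6 edits. Capitals would mark the RUNX motif, which neither window held.
RNVU1-14: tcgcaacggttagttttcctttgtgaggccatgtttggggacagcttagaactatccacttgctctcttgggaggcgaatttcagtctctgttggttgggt
RNVU1-27: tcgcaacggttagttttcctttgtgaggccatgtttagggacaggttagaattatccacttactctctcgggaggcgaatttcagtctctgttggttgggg

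From 500 bases before to 700 bases after the start, these 2 genes differed by 53 edits over 1200 bases. RNVU1-15 differed from them by 53 and 69 edits and had no peak. RNVU1-19, with RUNX1 only, differed from the other 3 genes by 73 to 87 edits.

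U2 pairs with the branch site. RNU2-1 (chr17:43233787-43233977), in the span of CCDC200, was assigned the strongest PTBP1 peak among the 48 genes, of fold enrichment 98.2 from 168 fragments (144 to 195) and rank 88. The peak, chr17:43231483-43232844, began 943 bases past the gene and its summit lay 1835 bases after the start, so it was the assigned peak farthest from its gene. No RUNX1 peak was within 1 kb. U4 base-pairs with U6 before the spliceosome is activated. RNU4-2 (chr12:120291763-120291903) lay under a PTBP1 peak of 17.4 from 29 fragments at 335. The same peak was 560 bases from RNU4-1 (chr12:120293097-120293237), so the neighbouring U4 genes rest on 1 peak, and RUNX1 had none there.

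U5 holds the exon ends during splicing, and 4 of its 5 genes had a PTBP1 peak (80%, 37.6 to 96.4). The PTBP1 shares were 15.7% of all autosomal genes and 4.51% of the short ones. RNU5E-1 (chr1:11908152-11908271) was the strongest, with 26.7 from 45 fragments (32.8 to 60.2) at 468, and had a RUNX1 peak of 18.8 from 24 fragments at 369. RNU5D-1 (chr1:44731055-44731170) had PTBP1 at 11.05 from 18 fragments, 217 bases after the start, and RUNX1 at 12.03 from 15 fragments, 206 bases before it. Its summits were thus on opposite sides of the start, 423 bases apart. RNU5A-1 (chr15:65296051-65296166), in the span of PARP16, had PTBP1 at 11.6 from 19 fragments at 245. RNU5F-1 (chr1:44721786-44721902), in an intron of ARMH1, had PTBP1 at 8.14 from 13 fragments at 319. The fragment intervals of RNU5A-1, RNU5D-1 and RNU5F-1 overlap. RNU5B-1 (chr15:65304677-65304792) had no peak.

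RNU7-1 (chr12:6943816-6943878), the gene of the histone-processing U7 RNA in the span of C12orf57, had a PTBP1 peak of 19.2 from 32 fragments at 357 and no RUNX1 peak.

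All 4 minor spliceosome genes had peaks of both lists, beside 10.7% of all autosomal genes and 2.03% of the short ones. RNU12 (chr22:42615244-42615393) had PTBP1 at 30.8 from 52 fragments (38.8 to 68.2) at 151 and RUNX1 at 21.8 from 28 fragments (18.6 to 40.5) at 153, so the summits were 2 bases apart, at the end of the gene. RNU4ATAC (chr2:121530881-121531007), in an intron of CLASP1, had PTBP1 at 13.4 from 22 fragments at 364 and RUNX1 at 21.8 from 28 fragments at 216. RNU11 (chr1:28648600-28648733) had PTBP1 at 18.6 from 31 fragments at 292, starting 9 bases past the gene, and RUNX1 at 6.77 from 8 fragments, 34 bases before the start. These 8 fragments were the smallest number found in the RUNX1 list, so the count of both lists at RNU11 rests on a weak peak. RNU6ATAC (chr9:134164439-134164564), a polymerase III gene, had PTBP1 at 52.3 from 89 fragments (71.5 to 110) and RUNX1 at 19.5 from 25 fragments, with the same summit base 465 bases upstream. A further PTBP1 peak of 12.8 from 21 fragments lay 765 bases past the RNU6ATAC gene, with its summit at 1460.

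U6 takes part in the catalytic center of the spliceosome, and 1 of its 5 genes had peaks (20%, 3.62 to 62.4). That interval includes the shares with a peak of either list, 19.1% of all autosomal genes and 5.16% of the short ones. RNU6-2 (chr19:1021522-1021628) had PTBP1 at 79.1 from 135 fragments (113 to 160), ranking 136, and RUNX1 at 38.3 from 50 fragments (37.1 to 65.9), the strongest RUNX1 peak among the 48 genes. Both summits lay on the same base 196 bases before the U6 start and 147 bases from the start of TMEM259. RNU6-1, RNU6-7, RNU6-8 and RNU6-9 had no peak, and RNU6-9 lies 266 bases from the start of MED16.

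**Figure D2:**
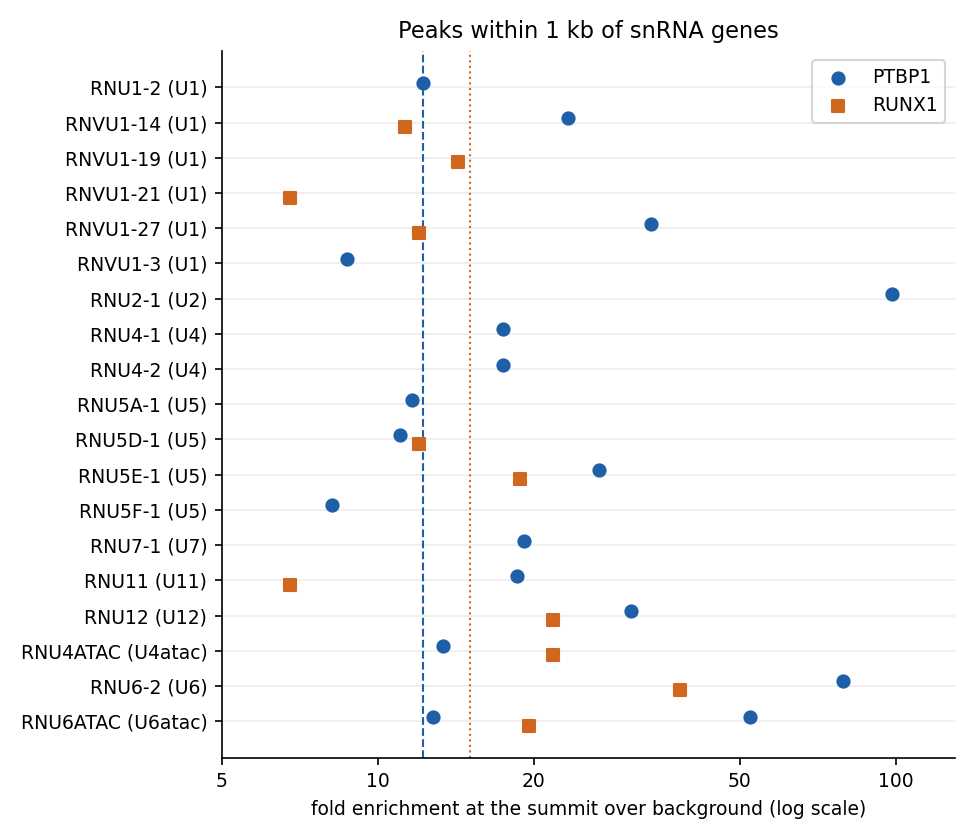
Fold enrichment at the summit (log axis) of each PTBP1 (circles) and RUNX1 (squares) peak within 1 kb of the 19 snRNA genes with a peak, with the family in brackets. The dashed and dotted lines are the medians of the whole PTBP1 list (12.2) and RUNX1 list (15.0); RNU2-1, RNU6-2 and RNU6ATAC had the strongest PTBP1 peaks.

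The 17 distinct PTBP1 peaks had a median fold enrichment of 18.6 (95% order-statistic interval 12.2 to 30.8). The whole list had a median of 12.2, the lower end of that interval. Of the 17 peaks, 12 lay above the list's median, 1 at it and 4 below, and 5 were in its top 10%. These 5 were at RNU2-1, RNU6-2, RNU6ATAC, RNVU1-27 and RNU12. The RNU2-1 peak began 943 bases past its gene, and RNU6-2 and RNU12 have a coding start within 1 kb. The 11 RUNX1 peaks had a median of 14.3 (6.77 to 21.8) against 15.0 for the list, with 5 above, 6 below and 1 in the top 10%. For PTBP1 the fragment intervals of RNU2-1 and RNU6-2 overlap and those of RNU6-2 and RNU6ATAC do not. The PTBP1 intervals of RNVU1-27, RNU12, RNU5E-1 and RNVU1-14 overlap one another.

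PTBP1 summits lay mostly past the 3′ end of the snRNA. Taking the nearest peak of each of the 17 genes, the summit was downstream of the start at 14, with a median position of 318 bases (217 to 357) and a range from -465 to 1835. The snRNA genes themselves were 63 to 191 bases long. At the 5203 protein-coding starts with a PTBP1 peak, the nearest summit had a median position of -19 bases (-27 to -8) and was downstream at 47.3%. Other short genes had a median of -287 (-361 to -158) over 297 genes. Among the 15 polymerase II snRNA genes, 14 had a downstream PTBP1 summit, with RNU4-1 and RNU4-2 counted through the same peak. The nearest summit was upstream at both polymerase III genes with a peak, RNU6-2 and RNU6ATAC. That of RNU6-2 lay nearer the start of TMEM259 than of the snRNA. Without the genes that had a coding start within 1 kb, the median stayed at 318 over 13 genes.

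The RUNX1 median lay less far along. RUNX1 summits had a median position of 153 bases (-206 to 246) over 11 genes, with 7 downstream. Over 4199 coding starts the median was 5 bases (-3 to 14). The RUNX1 interval at snRNA genes overlaps that of the 17 PTBP1 genes (217 to 357) and includes the coding median. At the 9 genes with both peaks, the PTBP1 and RUNX1 summits were 0 to 423 bases apart, with a median of 99. They shared a base at RNU6-2 and RNU6ATAC. The PTBP1 summit was the more downstream of the pair, by 83 to 423 bases, at RNVU1-27, RNVU1-14, RNU4ATAC, RNU5E-1, RNU11 and RNU5D-1. At RNU12 the RUNX1 summit was the more downstream, by 2 bases.

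**Figure D3:**
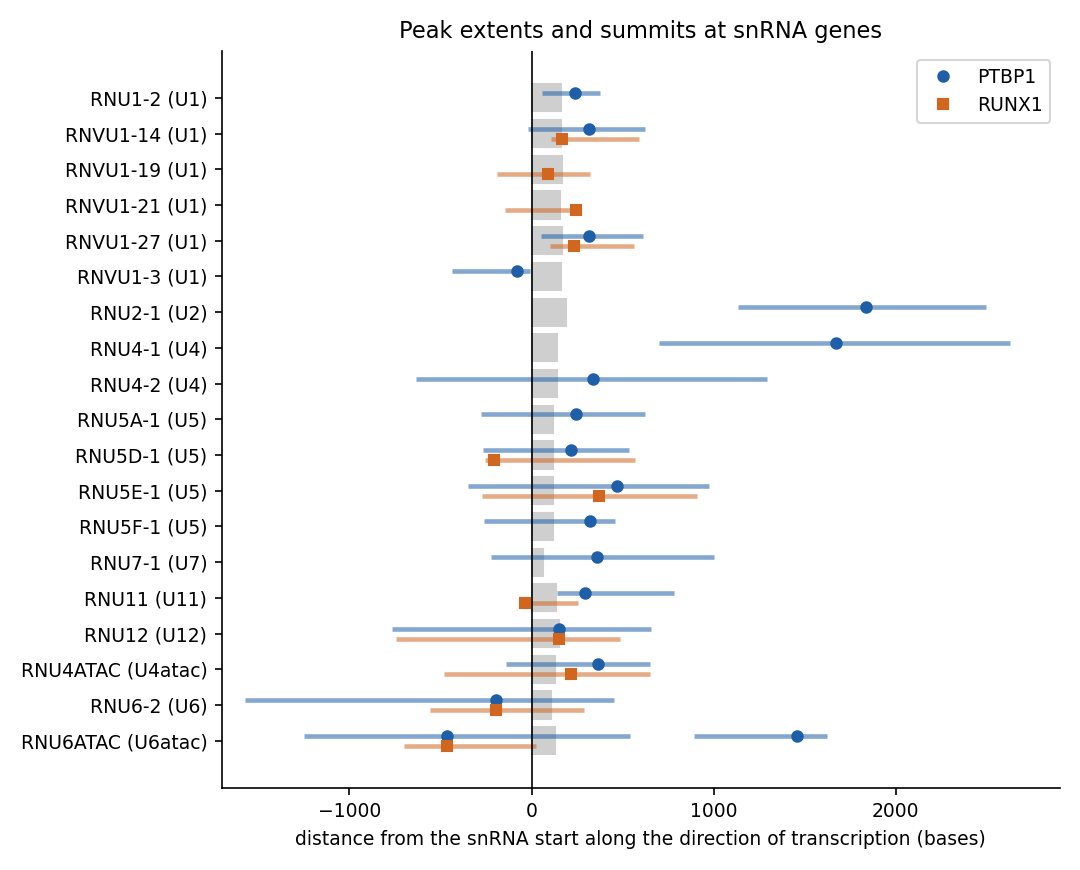
Extents (bars) and summits (circles, PTBP1; squares, RUNX1) of the peaks at the 19 snRNA genes, in bases from the annotated start in the direction of transcription, with the gene as a grey box. Most PTBP1 summits lie right of the grey box; those of RNVU1-3, RNU6-2 and RNU6ATAC lie left of the start, and RNU2-1 and RNU4-1 were assigned peaks whose summits are over 1 kb away.

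**Figure D4:**
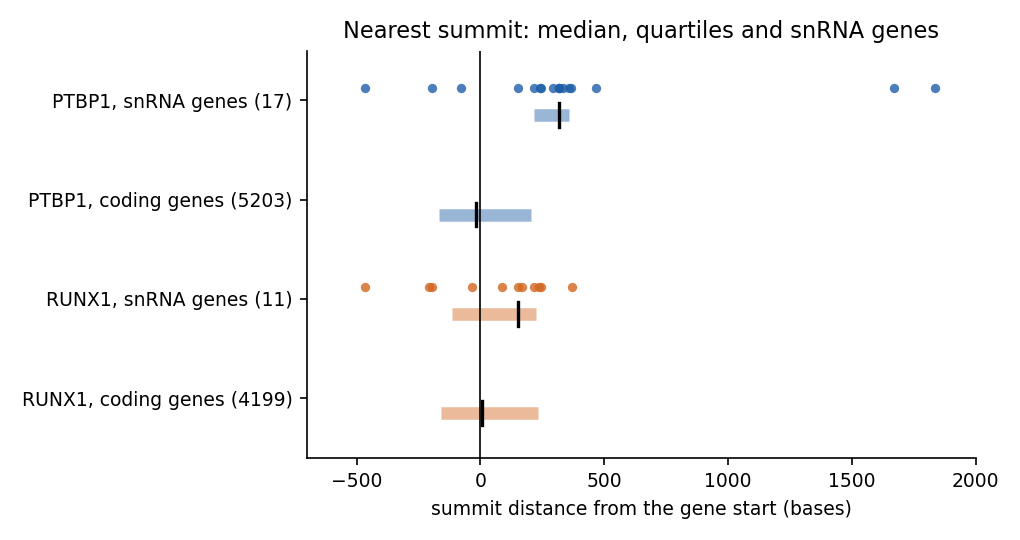
Distance in bases of the nearest PTBP1 and RUNX1 summit from the gene start, with the median (black line) and quartiles (bar) for snRNA genes and protein-coding genes, and a point for each snRNA gene. The PTBP1 median was 318 bases for snRNA genes and -19 for coding genes.

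At 4 of the genes with peaks a coding start was also close. The PTBP1 summit lay 601 bases from the start of TAF12 at RNU11, 433 from POLDIP3 at RNU12 and 1195 from C12orf57 at RNU7-1, in each case farther than from the snRNA start. At RNU6-2 the start of TMEM259 was nearer than that of the snRNA. The part of the coding promoters in these peaks was not tested.

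RNU2-1 and RNU4-1 owe their PTBP1 peak to the width of the window, and with a limit of 500 bases the count fell from 17 to 15 genes. The assigned peaks nearest to it were those of RNU4-1 at 560 bases, RNU6ATAC at 765 and RNU2-1 at 943. The nearest outside were PTBP1 peaks 1837 bases from RNU7-1 (fold enrichment 14.5), 1939 from RNU6ATAC (8.14) and 2010 from RNU6-2 (9.30), all genes that already had a PTBP1 peak. A RUNX1 peak 4977 bases from RNVU1-34, of fold enrichment 21.8, was the only one within 5 kb of a gene with no assigned peak.

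Near-identical copies limit what can be seen, because the authors kept only alignments of mapping quality above 30. As a measure, each 150-base stretch within 1 kb of a gene was searched for exact copies in 194 hg38 sequences, leaving out alternate contigs. At 28 of the 48 genes every stretch occurred once, and these comprised all genes outside U1 except RNU2-1 (43.6%), with 11 U1 genes. No stretch was unique at RNU1-3 and RNU1-4, so reads from there could not be placed on 1 copy, and 5 U1 genes in all had under 50% unique stretches, each without a peak. Of the 24 U1 genes without a peak, 10 were fully unique. Among the 25 U1 genes with at least 50% unique stretches, 4 had a PTBP1 peak (16.0%, 6.40 to 34.7), and among the 17 others so defined 12 did (70.6%, 46.9 to 86.7). Stretches that differ by few bases can also lose mapping quality, which this count does not see. The part of this filter in the lower U1 share was not tested.

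**Figure D5:**
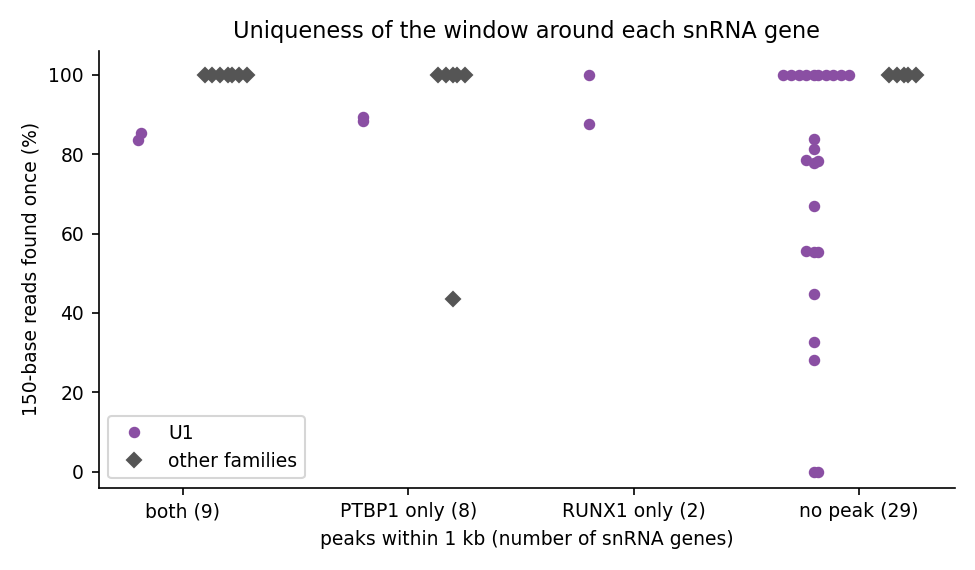
Percentage of 150-base stretches within 1 kb of each snRNA gene that occur once in hg38, by the peaks assigned to the gene, for U1 genes (circles) and other families (diamonds). U1 genes without a peak range from 0% to 100%, while all genes outside U1 but RNU2-1 are at 100%.

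Every summit within 1 kb of its gene's start lay where all overlapping 150-base stretches were unique. With the 12 PTBP1 genes whose windows were fully unique, the median summit position was 305.5 bases (151 to 364), with 10 downstream. For RUNX1 this left 8 genes with a median of 59.5 bases (-465 to 369), and 4 of the 8 were downstream, beside 7 of all 11.

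The promoter elements were searched in the same windows as the sequences above. The octamer, on either strand, was exact in 13 of 48 promoters (27.1%) against 2.28% of all autosomal gene starts. It was in 0 of 30 U1 promoters and in 13 of the 18 others, where it began between positions -229 and -203. The PSE pattern, on the gene's strand, was in 30 promoters (62.5%) against 1.27% of gene starts, and 27 of these were U1 promoters, where it mostly began at position -59. A TATA lying wholly 36 to 20 bases before the start was in 3 of 6 polymerase III promoters and 1 of 42 polymerase II promoters, against 4.91% of gene starts. GGGCGG on either strand was in 23 promoters (47.9%), against 27.6%.

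These letters occurred in genes with and without peaks. All 5 genes outside U1 without a peak held the octamer (RNU5B-1, RNU6-1, RNU6-7, RNU6-8 and RNU6-9), as did 8 of the 13 with a peak. RNU6-2 and RNU6ATAC, the polymerase III genes with peaks, held neither the exact octamer nor TATA in its window. The PSE pattern was in all 6 U1 promoters with a peak and in 21 of 24 without. The RUNX motif, on either strand, was in 4 of 48 promoters (8.33%), against 21.6% of gene starts, and in 2 of the 11 promoters with a RUNX1 peak, those of RNU4ATAC and RNU6ATAC. Within 50 bases of the RUNX1 summits it was found at 4 of 11, those of RNVU1-14, RNVU1-19, RNU4ATAC and RNU6ATAC (36.4%), beside 24.1% of 7567 autosomal summits of the list.

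Genes that work with snRNAs were taken as lists. Of 7 polymerase III genes with promoters of the same kind, 6 were matched by symbol and counted as for snRNA genes, with PTBP1 at 3 and RUNX1 at 3, beside 15.7% and 14.1% of all autosomal genes. RN7SK, RMRP and RPPH1 are longer than the short-gene limit of 191 bases, so the shares of short genes were not used here. RPPH1, the RNA of RNase P, had the strongest PTBP1 peak, of 77.3 from 132 fragments, and a RUNX1 peak of 25.6 from 33. RMRP had both, with PTBP1 at 13.7 from 94 fragments. RN7SK had PTBP1 at 3.72 from 113 fragments, and RNY1 had RUNX1. The PTBP1 backgrounds at RMRP and RN7SK thus lay above the usual value. For protein-coding lists peaks within 1 kb of the start were counted, with 27.2% of coding starts for PTBP1 and 22.0% for RUNX1 as the background. Of 13 snRNA transcription factors, 6 had PTBP1 and 6 RUNX1, with both at TBP, ZNF143, SNAPC2 and ELL. Of 14 Integrator subunits, which cleave the nascent snRNA, 10 had PTBP1 and 5 RUNX1. INTS9 had the highest PTBP1 fold enrichment, 33.7 from 57 fragments. INTS6 had more fragments, 77, at a fold enrichment of 11.3, so backgrounds differed within this list. Of 18 genes of snRNP assembly and export with a start on the autosomes, 8 had PTBP1 and 5 RUNX1. The strongest PTBP1 peak was at MEPCE, the capping enzyme of 7SK RNA (65.7 from 112 fragments), with its summit 969 bases after the start. Read uniqueness was not measured for the genes of these lists. The members of these lists are few and were not tested against the background.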

How the data were processed

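The authors mapped read pairs to hg38 using Bowtie2, required a mapping quality above 30, removed duplicates and ran MACS3 at a q-value threshold of 1e-07. The deposited lists hold per peak a score, a fold enrichment ratio at the summit, −log10 p-values and q-values and the summit offset. They name a target only, so the lists were read as CUT&Tag and pooling of replicates is not given in the sources used here. Fragments and background were solved from the fold enrichment and p-value (largest difference 0.00134). A RUNX1 peak needs fewer fragments because its background is lower. Genes were those of GENCODE 44, coordinates are 1-based, and a gene's distance to a peak was measured edge to edge. Every snRNA gene with a peak was named. Some promoter sequences are not reported here. The genes and lists were chosen with earlier results of these data known. No test was run because each target has 1 list. Alternatives covered the distance, q-value, read uniqueness, coding starts, background and loci. Procedures were tested on simulated data. Python 3.11.15, numpy 2.4.6, pandas 2.3.3 and scipy 1.17.1 were used.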

Additional observations from a re-analysis of the deposited data

How the results depend on the processing

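Of 11 alternatives for each count, the share of snRNA genes with a PTBP1 peak stayed within 1.5 times and within its counting interval in all 11, from 25% to 38.1%. The shares for RUNX1 and for both lists did so in 10 each, from 18.8% to 26.2% and from 14.3% to 21.4%. The exception was a q-value at or under 1e-20, which left RUNX1 peaks at 12.5% (6 of 48 genes) and both at 10.4% (5 of 48). This threshold removes weak peaks by construction. Another of the 11, keeping only peaks at the usual background, could not change a count because 0 snRNA peaks had a raised one. Peaks covering the gene itself left 13 genes for PTBP1 and 11 for RUNX1. The medians of position and of fold enrichment stayed within their order-statistic intervals, including a restriction to fully unique windows that was chosen after seeing the data, under which the RUNX1 median position went from 153 to 59.5 bases. No paired analysis was possible because each target has a single peak list. Each PTBP1 peak rests on at least 11 fragments at its summit and each RUNX1 peak on 8, so weaker binding at genes without a peak was not detectable at this depth.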

Other observations

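GENCODE also annotates genes named only U2 beside RNU2-1 in the repeated U2 array on chromosome 17, which the symbols used above leave out. Of 12 such genes, 4 had a peak of either list within 1 kb, beside 19.1% of all autosomal genes and 5.16% of the short ones. The gene at chr17:43251829-43252019 lay under a PTBP1 peak of fold enrichment 187 from 321 fragments, ranking 11 of 9370, and a RUNX1 peak of 39.8 from 52 fragments, with the same summit base 313 bases after the start. PTBP1 peaks of 68.6 and 30.8 lay near 3 more U2 genes, with no RUNX1 peak there. Peaks in such an array can only be placed where its copies differ.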
